A study of Mus musculus with 12 samples.

Results

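Tat, Hpd, Hgd, Fah, Tdo2, Ido2, Kmo, Kynu and Haao are the genes described here: the liver enzymes that break down tyrosine (the first 4) and tryptophan (the other 5). They were picked by gene name, and the rule uses no measured value, though it was set with earlier results of these data known. Each was matched by gene name and RefSeq accession among 34607 names on an Agilent mouse array, and all 9 were among the 20584 genes that could be tested. RNA from 12 mouse livers was hybridised, 1 liver to an array, in 3 groups of 4 mice that the titles call WT (129/Sv x C57BL/6), E2F1 (E2f1-/-) and E2F2 (E2f2-/-). The products of the 2 deleted genes are transcription factors best known for switching on genes of the cell cycle. Every group, wild type included, was given the liver carcinogen diethylnitrosamine (DEN) at 25 mg/kg by intraperitoneal injection at 14 days of age. From weaning at 1 month they ate a diet with 60% of its calories from fat for 32 weeks, and at 9 months of age they were fasted for 4 hours and killed. No group without DEN or without the high-fat diet enters a comparison. For the E2f1 knockout samples 1 label field names vehicle and chow, against their titles, descriptions and characteristics, and every comparison with that group carries this conflict. The sources used here do not give sex, the hour of killing or the deleted part of each gene.

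Tyrosine is degraded in hepatocytes by a chain of enzymes. Tat removes the amino group, Hpd makes homogentisate, Hgd opens its ring, and Fah splits the last intermediate into fumarate and acetoacetate. Loss of these enzymes causes the human tyrosinaemias and alkaptonuria. Tryptophan is opened by Tdo2 in the liver, and by Ido1 and its relative Ido2, to start the kynurenine pathway. Kmo, Kynu and Haao then carry kynurenine towards quinolinate, a precursor of NAD. Tat and Tdo2 are textbook examples of liver genes induced by glucocorticoids.

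The 250 bases before the annotated start of transcription were read from RefSeq (assembly GRCm38.p6) for 7 of the 9 genes. No sequence was found for Ido2 and Kynu. Those of Tat and Hpd, the enzymes of the first 2 steps, and of Hgd and Tdo2, which had the smallest adjusted p of their pathways in E2f1 knockout livers, are shown because these genes were higher together. They are written 5′ to 3′ on the strand of the gene, in lower case, with matches to the searched motifs in capitals.
Tat, chr8:109990186-109990435, plus strand: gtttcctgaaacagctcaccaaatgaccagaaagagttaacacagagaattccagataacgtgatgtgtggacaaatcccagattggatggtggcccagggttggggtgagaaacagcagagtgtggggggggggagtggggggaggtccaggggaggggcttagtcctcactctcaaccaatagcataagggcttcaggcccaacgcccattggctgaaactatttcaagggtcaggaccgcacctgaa
Hpd, chr5:123182724-123182973, minus strand: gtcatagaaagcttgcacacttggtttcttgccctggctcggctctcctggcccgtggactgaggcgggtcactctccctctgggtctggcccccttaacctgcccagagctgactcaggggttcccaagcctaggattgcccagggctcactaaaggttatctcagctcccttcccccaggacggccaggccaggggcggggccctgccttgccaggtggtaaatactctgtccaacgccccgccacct
Hgd, chr16:37579903-37580152, plus strand: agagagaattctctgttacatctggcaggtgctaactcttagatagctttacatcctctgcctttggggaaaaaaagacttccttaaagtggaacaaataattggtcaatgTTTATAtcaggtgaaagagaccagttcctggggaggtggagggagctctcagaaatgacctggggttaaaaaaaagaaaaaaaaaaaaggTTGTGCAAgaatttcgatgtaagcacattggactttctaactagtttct
Tdo2, chr3:81975729-81975978, minus strand: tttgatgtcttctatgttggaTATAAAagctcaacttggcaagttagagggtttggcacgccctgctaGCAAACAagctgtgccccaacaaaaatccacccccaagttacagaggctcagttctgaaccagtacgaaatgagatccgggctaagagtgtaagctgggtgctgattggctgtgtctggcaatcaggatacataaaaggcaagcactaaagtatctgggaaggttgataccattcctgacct

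Both strands were searched for exact letters. The E2F motif was taken as TTTCCCGC, TTTGGCGC, TTTGCCGC or TTTCGCGC. It was found in 0 of the 7 sequences, against 1.86% of 32851 RefSeq promoter windows of the same length. The letters of a TATA box (TATAAA) were matched in Tdo2 and, on the opposite strand (TTTATA), in Hgd, against 12.4% of all windows. In Hgd the match lay 139 to 134 bases and in Tdo2 229 to 224 bases before the start. Hgd also held a C/EBP match (TTGCNNAA, 9.56% of windows) 49 to 42 bases before the start. Tdo2 held a FOXA match (TGTTTAC or TGTTTGC, 7.29%) 182 to 176 bases before it. The window of Haao, not shown, held a match to the HNF1 half-site (GTTAAT, 6.43%) and to the glucocorticoid receptor half-site (AGAACA, 16.1%). Neither the D-box (TTATGTAA, 0.819%) nor the E-box (CACGTG, 6.02%) was matched in any of the 7. The windows ranged in GC content from 38.8% (Hgd) to 64.4% (Fah), around a median of 52.4% over all windows. The matches overlapped no other motif. They describe letters in these windows and show no binding.

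Values below are log2 processed signals minus the 75th percentile of the array, so a difference of 1 is a 2-fold change. That percentile ranged from 119.2 to 238.3 intensity units, and 44.7% to 54.4% of probes were well above background on an array. The E2f1 probe measured -0.27 to 0.45 in wild-type and -0.91 to -0.64 in E2f1 knockout livers and fell by 0.82 ± 0.19 (SE) there (adjusted p = 0.0113). The E2f2 probe did not fall beyond the threshold in the livers labelled E2f2 knockout (0.19 to 0.73, wild type 0.48 to 1.04, difference -0.26 ± 0.21, adjusted p = 0.408), whereas it fell by 1.50 ± 0.21 in E2f1 knockout livers (adjusted p = 0.0014). The deleted exons are unknown, so whether these probes lie inside them is unknown. The second knockout group is therefore called E2f2-labelled. The median of 12 hepatocyte markers, Alb and Apoa1 among them, was 8.97 to 9.80 on every array. The wild-type livers differed among themselves. The median of 19 liver tumour markers was 3.50 and 3.33 in wild-type replicates 1 and 2, 0.96 in replicate 3 and 2.06 in replicate 4, while the knockout groups ranged from -1.41 to 0.48. These markers, such as Afp and Gpc3, moved with the genotype, and their part in the results below was not tested. The list also holds genes of cell division (Mki67, Top2a, Prc1, Birc5 and Ccnb1) and the cell cycle inhibitors Cdkn2a and Cdkn2b. It is therefore not a measure of tumour tissue alone. In bulk liver, fewer hepatocytes and less RNA per hepatocyte cannot be told apart.

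Genes were tested with limma over all 12 arrays, with Benjamini-Hochberg adjustment over the 20584 genes, and adjusted p under 0.05 was called. Of the 9 enzymes 7 were higher in E2f1 knockout than in wild-type livers, against 13.2% of all genes tested, and 0 were lower, against 7.42%. In E2f2-labelled livers 8 of the 9 were higher than in wild type, against 14.6% of all genes, and 0 were lower, against 7.59%. The median difference of the 9 was 1.07 and 1.12, where that of all genes tested was 0.13 and 0.18. All knockout livers lay above all wild-type livers for 7 enzymes in E2f1 knockout, where 14.5% of all genes did so, and for 8 in E2f2-labelled livers, where 16.8% did. The comparisons share the wild-type arrays. With wild-type replicates 1 and 2 left out together, an alternative added after the data were seen, the counts were 5 and 0 of 9. The second count was also 4 or 5 without wild-type replicate 1 or 2 alone, or without E2f2-labelled replicate 2, 3 or 4. Leaving out both wild-type livers also lowered the number of all genes called from 4238 to 1413 and from 4573 to 1544.

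**Figure D1:**
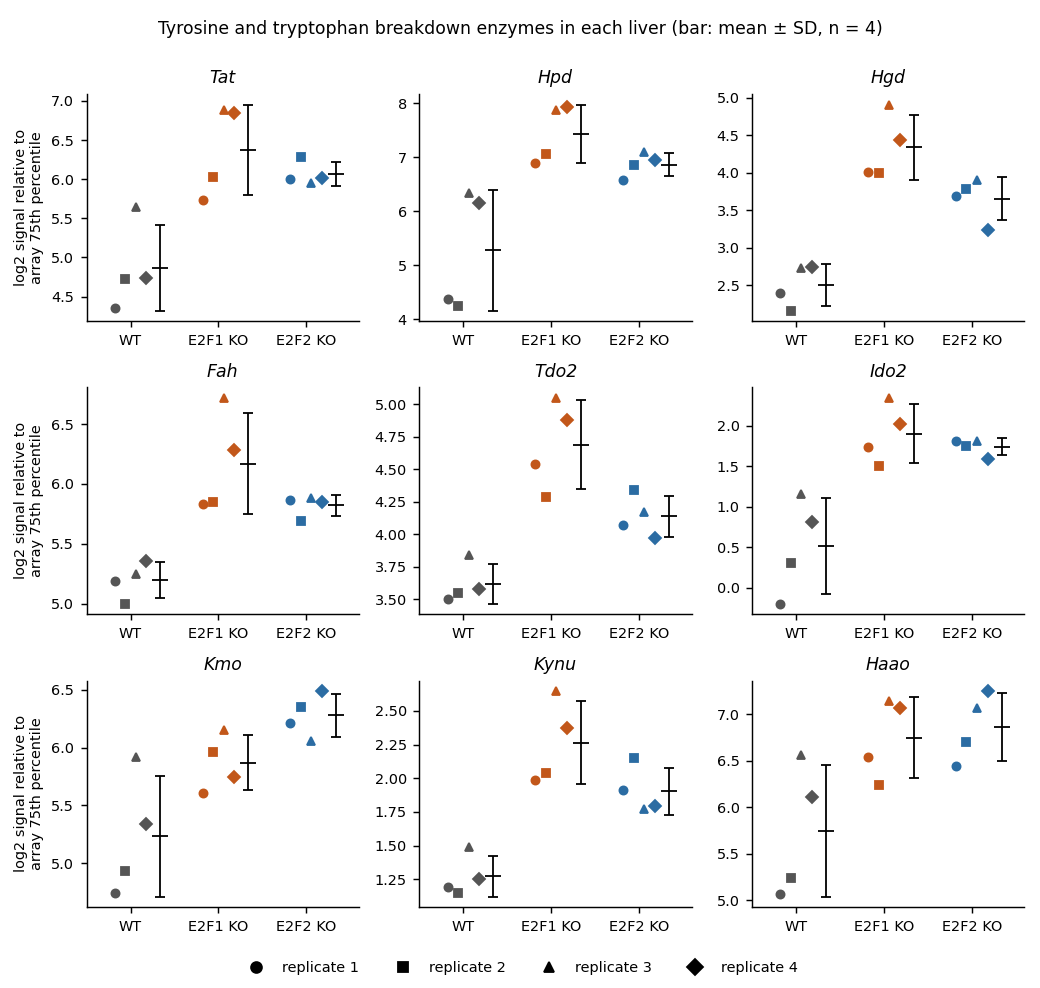
Log2 signal of each enzyme after subtraction of its array's 75th percentile (y axis) in the 4 livers of each group (x axis), with a marker for each replicate number and a bar for mean ± SD. For 7 enzymes the E2f1 knockout livers lie above all wild-type livers, and for 8 enzymes the E2f2-labelled livers do, against 14.5% and 16.8% of all genes. The y axes differ between panels and do not start at 0.

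Tat, which transaminates tyrosine in the rate-setting step of its breakdown, measured 4.36, 4.72, 5.64 and 4.74 in wild-type replicates 1 to 4. It measured 5.74, 6.03, 6.88 and 6.85 in E2f1 knockout livers, and 6.00, 6.29, 5.95 and 6.02 in E2f2-labelled livers. Both knockout groups lay wholly above wild type, whose replicate 3 was nearest to them. Tat rose 2.85-fold in E2f1 knockout livers (log2 difference 1.51 ± 0.30, SE, adjusted p = 0.0062) and 2.30-fold in E2f2-labelled livers (1.20 ± 0.30, adjusted p = 0.0161). Without wild-type replicates 1 and 2 both calls were lost, at 1.19 (adjusted p = 0.0729) and 0.88 (adjusted p = 0.157). Its probe (NM_146214) lies at chr8:112523207-112523266 in mm9, the build of the file headers.

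Hpd, the dioxygenase that makes homogentisate, had the widest spread in wild type. It measured 4.38 and 4.24 in wild-type replicates 1 and 2 but 6.33 and 6.16 in replicates 3 and 4. The E2f1 knockout livers measured 6.89, 7.06, 7.87 and 7.93, and the E2f2-labelled livers 6.57, 6.85, 7.09 and 6.95. No knockout liver overlapped wild type, though E2f2-labelled replicate 1 was close to wild-type replicate 3. The difference was 2.16 ± 0.46 in E2f1 knockout livers (4.46-fold, adjusted p = 0.00778) and 1.58 ± 0.46 in E2f2-labelled livers (3.00-fold, adjusted p = 0.0281). Hpd thus had the largest log2 difference of the 9 enzymes in both comparisons. Without wild-type replicates 1 and 2 the differences were 1.19 (adjusted p = 0.0468) and 0.62 (adjusted p = 0.237). The E2f2-labelled call was also lost when either of these replicates, or E2f2-labelled replicate 2, 3 or 4, was left out alone, with adjusted p from 0.0583 to 0.0812. The 2124-base span of its probe (NM_008277), chr5:123622237-123624360, is longer than the 60 bases of the probes that match a single block.

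Hgd opens the ring of homogentisate. Wild-type livers measured 2.39, 2.16, 2.73 and 2.74. E2f1 knockout livers measured 4.01, 4.00, 4.91 and 4.44, and E2f2-labelled livers 3.69, 3.78, 3.91 and 3.24. Of the 9 enzymes only Hgd had 3 groups that did not overlap one another, and the order was wild type, E2f2-labelled, E2f1 knockout. Hgd rose 3.57-fold in E2f1 knockout livers (1.84 ± 0.23, adjusted p = 0.000822, the smallest of the 9) and 2.22-fold in E2f2-labelled livers (1.15 ± 0.23, adjusted p = 0.0063). The second call was lost without wild-type replicates 1 and 2 (0.92, adjusted p = 0.0738). Its probe (NM_013547) lies at chr16:37621972-37622031.

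Fah, the last enzyme of the chain, measured 5.19, 5.00, 5.25 and 5.36 in wild-type livers. E2f1 knockout livers measured 5.83, 5.85, 6.72 and 6.28, and E2f2-labelled livers 5.87, 5.69, 5.88 and 5.85. Here wild-type replicates 1 and 2 were close to the other wild-type livers, and both knockout groups lay above all of them. Fah rose 1.96-fold (0.97 ± 0.19, adjusted p = 0.00596) and 1.54-fold (0.62 ± 0.19, adjusted p = 0.038). Without wild-type replicates 1 and 2 the differences were 0.86 (adjusted p = 0.0613) and 0.51 (adjusted p = 0.218). The E2f2-labelled call was lost as well without wild-type replicate 1 or 2, or without any 1 of the E2f2-labelled livers (differences from 0.55 to 0.67). It was lost with quantile normalization (0.35, adjusted p = 0.158), series matrix values (0.34, adjusted p = 0.164), median centring (adjusted p = 0.148) and normexp (adjusted p = 0.0755) too. The probe (NM_010176) spans 817 bases, chr7:91740916-91741732.

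Tdo2, the tryptophan dioxygenase of hepatocytes, measured 3.50, 3.55, 3.84 and 3.58 in wild-type livers. E2f1 knockout livers measured 4.54, 4.29, 5.05 and 4.88, and E2f2-labelled livers 4.07, 4.34, 4.17 and 3.97. All 8 knockout livers were above wild type. Tdo2 rose 2.10-fold in E2f1 knockout livers (1.07 ± 0.18, adjusted p = 0.00279). In E2f2-labelled livers the difference of 0.52 ± 0.18 (95% interval 0.13 to 0.90) missed the threshold (adjusted p = 0.0542). It passed when wild-type replicate 3 was left out (adjusted p = 0.0387), or E2f1 knockout replicate 2 or 3, and with the slide as a block (adjusted p = 0.0406). Under all 22 alternatives it passed in 6, with differences from 0.29 to 0.60 and adjusted p up to 0.269. The probe (NM_019911) spans 3011 bases, chr3:81767918-81770928.

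Ido2 measured -0.20, 0.31, 1.16 and 0.81 in wild-type livers, with replicate 3 highest as for Tat. E2f1 knockout livers measured 1.74, 1.50, 2.35 and 2.02, and E2f2-labelled livers 1.82, 1.75, 1.81 and 1.59. Again no knockout liver overlapped wild type. Ido2 rose 2.60-fold (1.38 ± 0.27, adjusted p = 0.00543) and 2.33-fold (1.22 ± 0.27, adjusted p = 0.00869). Without wild-type replicates 1 and 2 these were 0.92 (adjusted p = 0.0454) and 0.76 (adjusted p = 0.0755). The probe of its relative Ido1 was well above background on 0 of 12 arrays and was not tested. The Ido2 probe (NM_145949) lies at chr8:25642929-25642988.

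Kmo, which hydroxylates kynurenine, was read by 2 probes that gave different results. The brighter probe (chr1:177590673-177590732) measured 4.74, 4.93, 5.92 and 5.34 in wild-type livers, 5.61, 5.96, 6.15 and 5.75 in E2f1 knockout livers, and 6.21, 6.35, 6.06 and 6.49 in E2f2-labelled livers. E2f1 knockout livers overlapped wild type (0.63 ± 0.24, 95% interval 0.12 to 1.15, adjusted p = 0.0791), whereas E2f2-labelled livers lay above it and Kmo rose 2.06-fold (1.04 ± 0.24, adjusted p = 0.00995). The E2f1 knockout difference passed the threshold without wild-type replicate 3 (0.86, adjusted p = 0.00846), and the E2f2-labelled call was lost without wild-type replicates 1 and 2 (0.64, adjusted p = 0.105). Under all 22 alternatives the E2f1 knockout difference passed in 2. It ranged from 0.23 to 0.86, with adjusted p up to 0.574.

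The dimmer probe (chr1:177590341-177590400), which matches the same transcript, NM_133809, was tested in a fit of all 28450 tested probes. It measured 2.31, 2.17, 2.69 and 2.31 in wild-type livers, 2.00, 2.47, 2.62 and 2.24 in E2f1 knockout livers, and 3.23, 3.25, 3.12 and 3.14 in E2f2-labelled livers. E2f1 knockout and wild-type livers covered the same range (-0.04 ± 0.17, adjusted p = 0.909). E2f2-labelled livers were above wild type by 0.82 ± 0.17 (adjusted p = 0.00645). They were also above E2f1 knockout livers by 0.85 ± 0.17 (adjusted p = 0.0196). The brighter probe showed no such called difference between the knockout groups (0.41 ± 0.24, adjusted p = 0.567 in the same fit).

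**Figure D2:**
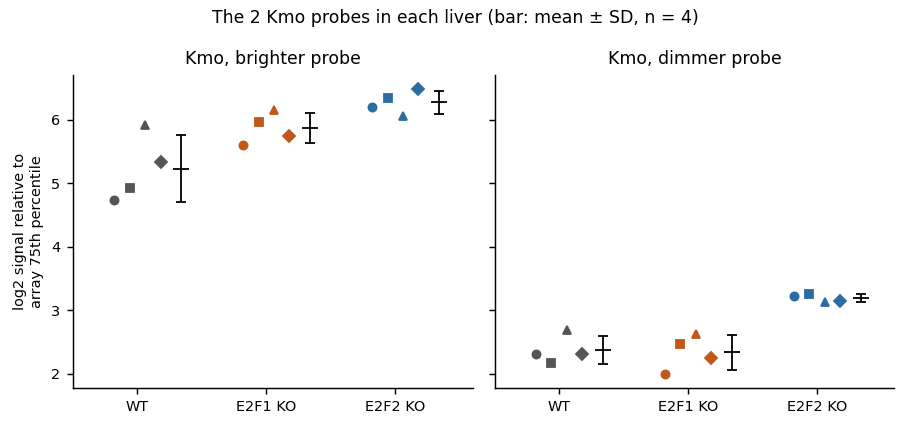
Log2 signal of the brighter (left) and dimmer (right) Kmo probe, less the array's 75th percentile, for the 4 livers of each group, with mean ± SD. On the dimmer probe the 4 E2f2-labelled livers lie between 3.12 and 3.25, above all other livers.

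Kynu, which cleaves hydroxykynurenine to hydroxyanthranilate, measured 1.19, 1.15, 1.49 and 1.25 in wild-type livers. E2f1 knockout livers measured 1.99, 2.04, 2.65 and 2.37, and E2f2-labelled livers 1.91, 2.15, 1.77 and 1.79. Both groups were wholly above wild type. Kynu rose 1.99-fold (0.99 ± 0.17, adjusted p = 0.00329) and 1.55-fold (0.63 ± 0.17, adjusted p = 0.0216). The second call was lost without wild-type replicate 1 or 2 or E2f2-labelled replicate 2, with adjusted p up to 0.0657. It was also lost without both of these wild-type livers. Under all 22 alternatives it passed in 15, with adjusted p up to 0.158. The probe (NM_027552) lies at chr2:43537195-43537254. Another Kynu probe (NM_001289593, chr2:43459748-43459807) also rose in both comparisons, by 1.23 ± 0.25 (adjusted p = 0.00661) and 0.98 ± 0.25 (adjusted p = 0.0175).

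Haao, the dioxygenase of hydroxyanthranilate, measured 5.07, 5.24, 6.56 and 6.11 in wild-type livers. E2f1 knockout livers measured 6.54, 6.24, 7.14 and 7.07, and E2f2-labelled livers 6.44, 6.70, 7.07 and 7.25. Haao was the 1 enzyme for which both knockout groups overlapped wild type, through wild-type replicate 3. The E2f1 knockout difference of 1.00 ± 0.33 (95% interval 0.27 to 1.73) missed the threshold (adjusted p = 0.0527), and the E2f2-labelled difference of 1.12 ± 0.33 (2.18-fold) passed it (adjusted p = 0.0324). The first passed without wild-type replicate 3 (1.27, adjusted p = 0.0124) or E2f1 knockout replicate 2. Under all 22 alternatives the first passed in 6, with differences from 0.42 to 1.27 and adjusted p up to 0.456. The second was lost without wild-type replicate 1 or 2 or E2f2-labelled replicate 2, 3 or 4 (adjusted p from 0.0557 to 0.0954), and without both of these wild-type livers it was 0.54. The probe (NM_025325) lies at chr17:84230696-84230755.

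**Figure D3:**
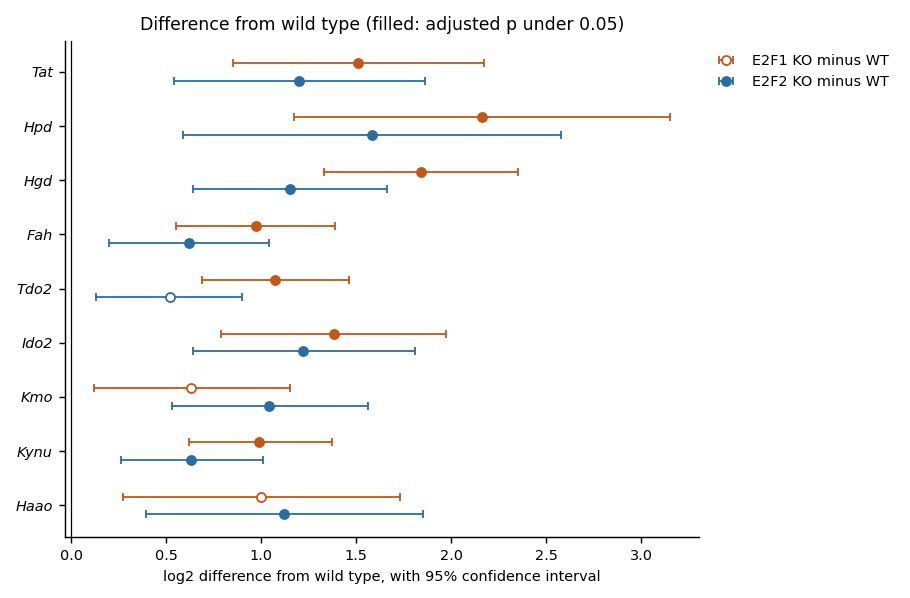
Log2 difference of each enzyme from wild type (x axis) with its 95% confidence interval, for E2f1 knockout (orange) and E2f2-labelled livers (blue). Filled points passed adjusted p under 0.05. Open points are Kmo and Haao in E2f1 knockout and Tdo2 in E2f2-labelled livers, and no interval reaches 0.

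Between the knockout groups 0 of the 9 enzymes were higher in E2f2-labelled than in E2f1 knockout livers, against 0.913% of all genes, and 0 were lower, against 0.724%. The intervals remain wide. Hgd, whose groups did not overlap, differed by -0.69 (95% interval -1.20 to -0.18, adjusted p = 0.236). Tdo2 differed by -0.55 (-0.94 to -0.17, adjusted p = 0.193). For Hpd the interval ran from -1.56 to 0.42, and for Haao from -0.61 to 0.85. Over the whole array 5.23% of genes had all E2f2-labelled livers above all E2f1 knockout livers and 3.83% had them below.

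Each slide held 1 array of each group, so the comparison was repeated within slides. By the probe that stood for each gene, all 9 enzymes were higher than wild type on 4 of 4 slides in both comparisons. So were 28.7% of all genes in the first and 34.8% in the second. The dimmer Kmo probe was lower in E2f1 knockout than in wild-type livers on slides 1, 3 and 4 (2.00, 2.62 and 2.24 against 2.31, 2.69 and 2.31). For the probes used, the E2f1 knockout difference within slides ranged from 0.23 (Kmo, slide 3) to 2.81 (Hpd, slide 2). The E2f2-labelled difference ranged from 0.14 (Kmo, slide 3) to 2.60 (Hpd, slide 2). With the slide as a block, 8 and 9 of the 9 enzymes passed as higher, against 18% and 21.8% of all genes in that fit, since Haao joined in E2f1 knockout (adjusted p = 0.00473) and Tdo2 in E2f2-labelled livers. The position of an array on its slide was the same for each group on every slide and cannot be told apart from genotype.

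The 9 enzymes varied together from liver to liver. Over the 12 arrays all 36 pairs had a positive Pearson r, with a median of 0.88, and after group means were removed all 36 were still positive, with a median of 0.72. By comparison the median r of each enzyme with all other genes was 0.16 to 0.22, or 0.02 to 0.08 after group means were removed. With group means removed, 1.83% (Kynu) to 11.5% (Haao) of all genes had an r with an enzyme at least as high as its median r with the other 8. These values are descriptions over 12 arrays that share RNA quality, labelling and cell make-up. The genes most like the mean profile of the 9 were Dmgdh (r = 0.981), which degrades dimethylglycine, Aldh6a1 (0.981), of valine breakdown, Dgat2 (0.98), of triglyceride synthesis, Hebp1 (0.978) and Taco1 (0.978). The closest single gene was Pptc7 for Tat (0.973), Cyp4f15 for Hpd (0.984), Mdh1 for Hgd (0.982), Ndufs8 for Fah (0.979) and N4bp2l1 for Tdo2 (0.968). It was Dpp4 for Ido2 (0.983), Cmah for Kmo (0.968), Klf15 for Kynu (0.967) and 5730414N17Rik for Haao (0.992).

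Of 12 other genes of phenylalanine and tyrosine metabolism, 6 were higher in E2f1 knockout livers and 4 in E2f2-labelled livers, and 0 were lower in either. Over all genes tested 13.2% and 14.6% were called higher, and 7.42% and 7.59% lower. The counts of the pathway lists below are to be read against these shares. Gstz1, the isomerase between Hgd and Fah, rose by 0.98 ± 0.26 (adjusted p = 0.0217) and 0.92 ± 0.26 (adjusted p = 0.0275). Gch1, which starts synthesis of tetrahydrobiopterin, rose by 0.86 ± 0.13 and 0.85 ± 0.13, with adjusted p of 0.00175 and 0.00151. Got2, a mitochondrial aspartate transaminase, rose by 0.87 and 0.68. Qdpr, which recycles tetrahydrobiopterin, and Ddt, a tautomerase, passed in E2f1 knockout livers alone (0.78 and 1.13), with 0.49 (adjusted p = 0.138) and 0.51 (adjusted p = 0.0973) in E2f2-labelled livers. Neither difference between the knockout groups passed the threshold (adjusted p = 0.734 and 0.217).

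Of 18 other genes of tryptophan breakdown and NAD synthesis, 7 were higher in the first comparison and 6 in the second, with 0 lower. Of all genes, 13.2% and 14.6% were higher. Afmid, which turns formylkynurenine into kynurenine, rose by 1.36 ± 0.34 in E2f1 knockout livers (adjusted p = 0.0163) and measured 0.65 ± 0.34 in E2f2-labelled livers (adjusted p = 0.192). Aadat, a kynurenine aminotransferase, was called higher in both, but its probe was well above background on 1 of 4 wild-type arrays against all 8 knockout arrays. It entered the test through the groups where it was high, so no size of its difference is given. Acmsd and Aldh8a1, which lead the product of Haao away from NAD, differed in outcome. Aldh8a1 rose by 1.03 and 1.04, and Acmsd missed the threshold with 1.14 ± 0.40 (adjusted p = 0.0611) and 0.27 ± 0.40 (adjusted p = 0.658). Qprt, which carries quinolinate to NAD, missed it too, with 0.41 (adjusted p = 0.125) and 0.51 (adjusted p = 0.0554). Nmnat1, which forms the dinucleotide, rose by 0.60 and 0.99, and Naprt, which uses dietary nicotinate, by 0.76 and 1.01. Nadsyn1, the last step from quinolinate, passed in E2f2-labelled livers (0.51, adjusted p = 0.0369) and measured 0.33 in E2f1 knockout livers (adjusted p = 0.161).

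Nnmt, which methylates nicotinamide, had a large rise in both comparisons. It measured 0.89, 1.81, 2.95 and 2.55 in wild-type livers. The E2f1 knockout livers measured 4.71, 4.37, 5.07 and 5.11, and the E2f2-labelled livers 4.80, 5.10, 4.17 and 4.84. All 8 knockout livers exceeded wild type (2.77 ± 0.38, adjusted p = 0.00127, and 2.68 ± 0.38, adjusted p = 0.00102). Inmt, an indole methyltransferase, measured 0.21, 0.40, 4.51 and 2.91 in wild-type livers and 5.64 to 6.42 in E2f1 knockout livers (3.88 ± 0.84, adjusted p = 0.00871). In E2f2-labelled livers it measured 2.50, 3.35, 4.95 and 4.53 and overlapped wild type (1.83 ± 0.84, adjusted p = 0.139). Tph1, of serotonin synthesis, was well above background on 0 of 12 arrays.

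**Figure D4:**
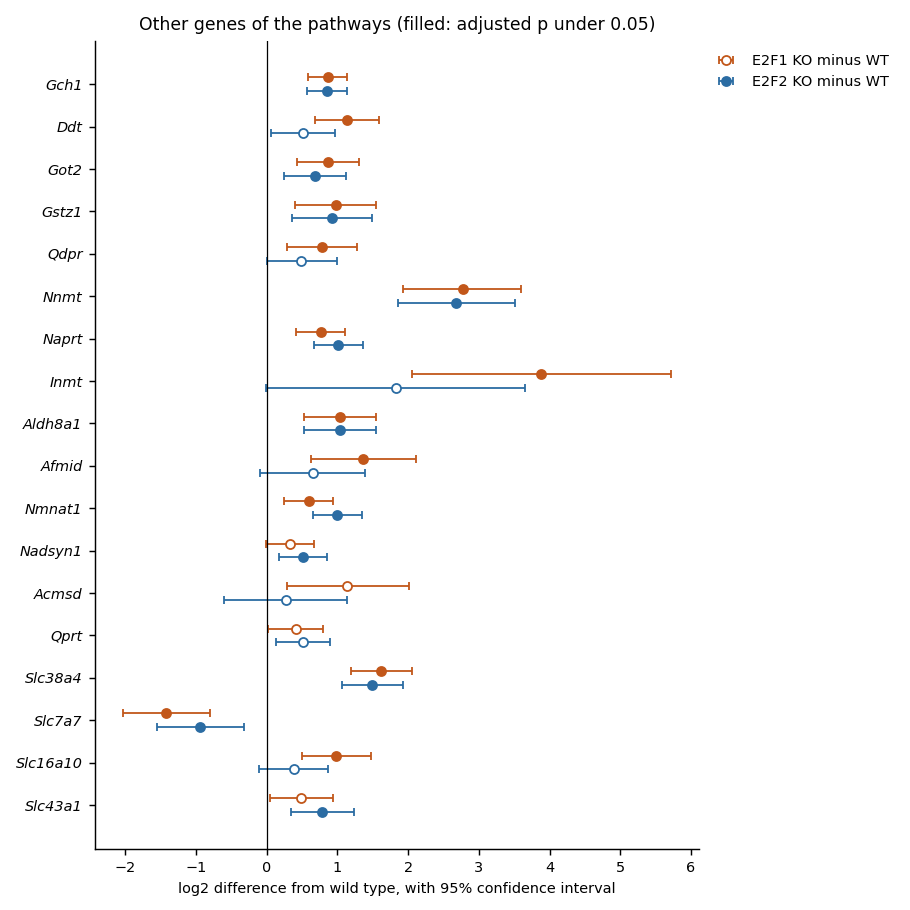
Log2 difference from wild type (x axis) with 95% confidence interval for 18 other genes of the pathways and their transporters, in E2f1 knockout (orange) and E2f2-labelled livers (blue). Filled points passed adjusted p under 0.05, and Slc7a7 is the gene to the left of 0. All but Acmsd and Qprt were called in these data, which is how the shown genes were chosen. Of the 37 tested genes of these lists, 21 and 24 were not called.

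Among 7 tested transporters of aromatic and other neutral amino acids, 2 were higher and 1 lower in each comparison. Of all genes, 13.2% and 14.6% were higher and 7.42% and 7.59% lower. Slc38a4 rose by 1.62 ± 0.20 and 1.49 ± 0.20, with adjusted p of 0.000645 in both. Slc16a10, an aromatic amino acid carrier, rose by 0.98 in E2f1 knockout livers (adjusted p = 0.0107) and measured 0.38 in E2f2-labelled livers (adjusted p = 0.242). Slc43a1 rose by 0.78 in E2f2-labelled livers (adjusted p = 0.0177) and measured 0.49 in E2f1 knockout livers (adjusted p = 0.107). Neither difference between the knockout groups passed (adjusted p = 0.29 and 0.684). Slc7a7, also abundant in macrophages, fell by 1.42 ± 0.29 (adjusted p = 0.00627) and 0.94 ± 0.29 (adjusted p = 0.0351). Slc6a19 was well above background on 0 of 12 arrays. Over the 3 lists together 15 of 37 genes were higher and 1 lower in E2f1 knockout livers, and 12 and 1 in E2f2-labelled livers, with medians of 0.64 and 0.51. Without wild-type replicates 1 and 2 the counts higher were 5 and 6, and 0 were lower in either comparison. In E2f2-labelled livers the count fell to 7, 8 and 8 without wild-type replicate 2 and E2f2-labelled replicates 2 and 3, and Slc7a7 lost its call without wild-type replicate 1, 2 or 4 or E2f2-labelled replicate 2, 3 or 4.

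Enzymes that break down other amino acids moved in the same direction. Of 41 tested, 31 passed as higher in E2f1 knockout livers and 25 in E2f2-labelled ones, against 13.2% and 14.6% of all genes. None was called lower, and the medians were 0.96 and 0.85. The list includes Dpyd and Dpys, of pyrimidine breakdown, which passed as higher in both comparisons. Aass, of lysine breakdown, rose by 1.81 ± 0.29 and 1.43 ± 0.29. Gnmt, which disposes of methionine's methyl groups, rose by 1.91 and 1.03, and Hibch and Mccc2, of branched-chain amino acid breakdown, by 0.95 and 1.04 in E2f1 knockout livers.

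**Figure D5:**
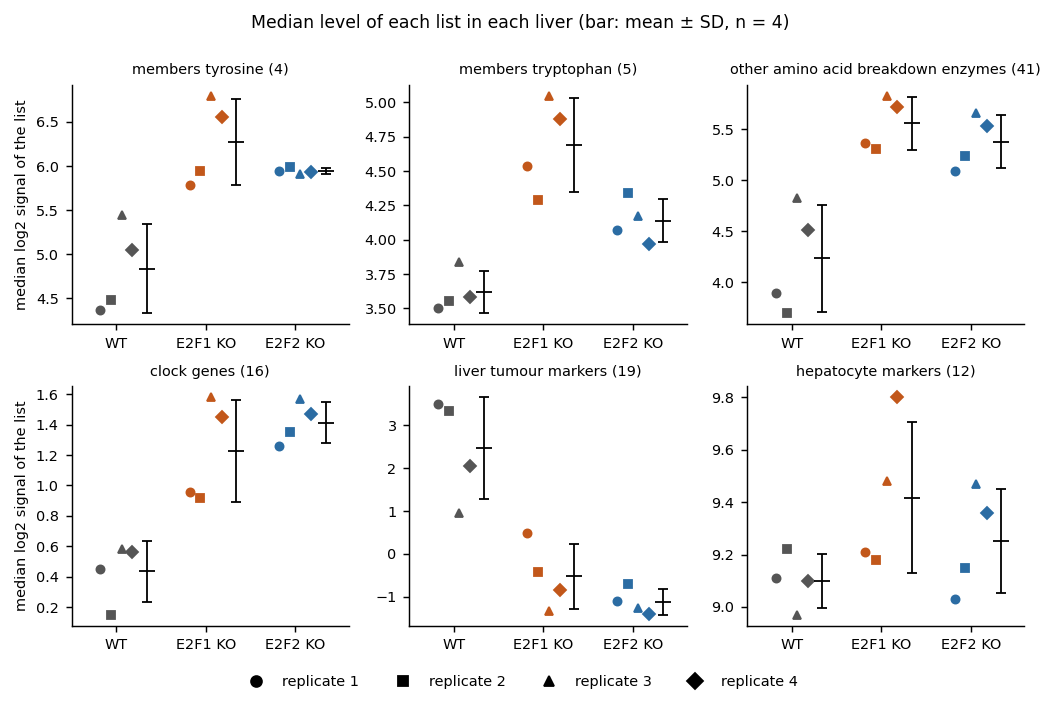
Median log2 signal of 6 gene lists (y axis, number of genes in brackets) in each of the 12 livers, with mean ± SD per group. The enzyme lists are lowest and the tumour markers highest in wild-type replicates 1 and 2, and the y axes differ between panels.

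Liver tumour markers moved the opposite way. Of 19 tested, 18 were lower in each comparison, against 7.42% and 7.59% of all genes, with medians of -3.12 and -2.95. Top2a, counted lower in both, was well above background on 3 of 4 wild-type and 0 knockout arrays. It entered the test through the group where it was high. Cdkn2b and Bex1, also lower in both, were well above background on 1 of 4 E2f2-labelled arrays. Akr1c18 fell by 4.99 ± 0.66 and Scd2 by 3.83 ± 0.43 in E2f1 knockout livers. Across wild-type livers the median of the 9 enzymes was 4.36, 4.24, 5.25 and 4.74 in replicates 1 to 4, so the 2 livers with the highest tumour markers had the lowest enzyme medians. It was 5.61 to 6.15 in E2f1 knockout and 5.69 to 5.88 in E2f2-labelled livers. Of 12 hepatocyte markers 2 were higher in E2f1 knockout livers (Cps1 and Ass1, of the urea cycle) and 1 in E2f2-labelled livers (Apob). These shares were not far from the 13.2% and 14.6% of all genes, and the list medians were 0.20 and 0.21.

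Lists of possible regulators of these enzymes, and lists that follow time of day, sex or zonation, were counted as well, and their shares are to be read against the 13.2% and 14.6% of all genes called higher and the 7.42% and 7.59% called lower. Of 20 glucocorticoid receptor genes and targets, 8 were higher in E2f1 knockout livers, and 4 were higher and 2 lower in E2f2-labelled livers. The other 12 and 14 were not called. Pck1 rose by 2.33 and 2.16 and Klf9 by 0.79 and 0.61, and the receptor gene Nr3c1 measured 0.15 (adjusted p = 0.572) and 0.11 (adjusted p = 0.669). The 2 lower in E2f2-labelled livers were Igfbp1 (-2.78, adjusted p = 0.0213) and Sult1e1 (-3.80, adjusted p = 0.00566). In E2f1 knockout livers they measured -1.99 (adjusted p = 0.0795) and -0.29 (adjusted p = 0.834). Of 16 clock genes, 10 were higher in each comparison and 1 and 2 lower, among them Per2 (1.89 and 1.21) and Tef (2.26 and 2.27) higher. Arntl was lower in both (-2.30, adjusted p = 0.0132, and -2.88, adjusted p = 0.00479). Ciart, counted higher in both, was well above background on 0 of 4 wild-type arrays, and Bhlhe41, higher in the second, on 1 of 4. Npas2, lower in the second, was so on 3 of 4 wild-type and 0 knockout arrays. These 3 genes entered the test through the groups where they were high. Of 14 hepatocyte transcription factors, 5 and 6 were higher, with Hnf4a at 0.68 and 0.79. Onecut1 fell by 1.50 in E2f1 knockout livers and measured -0.25 in E2f2-labelled livers (adjusted p = 0.64). Of 6 targets of the aryl hydrocarbon receptor, a receptor that kynurenine can activate, 1 was higher in each comparison (Cyp1a2, 2.26 and 1.83), a share near that of all genes. Male-biased liver genes were higher (9 and 10 of 10) and female-biased ones lower (5 of 9 in each), and Xist was well above background on 0 of 12 arrays. Eif2s3y, on the Y chromosome, was detected throughout and rose 0.59 and 0.63. Of 14 periportal genes 9 and 6 were higher, with 1 lower in the second, and 4 of 11 pericentral genes were higher in each. The part of hormones, hour, sex-biased expression and zonation in the enzymes' rise was not tested.

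Markers of other cells were counted against the same shares. In E2f1 knockout and E2f2-labelled livers 2 and 2 of 15 macrophage markers were higher, a share near that of all genes, and 3 and 5 lower. Cd163, 1 of the 2 higher in each, was well above background on 0 of 4 wild-type arrays and 4 of 4 in each knockout group. It entered the test through the groups where it was high. Macrophage list medians ranged from 1.23 to 3.07 in wild-type, 1.45 to 1.85 in E2f1 knockout and 0.75 to 1.76 in E2f2-labelled livers. Itgax fell, and Clec4f, a Kupffer cell gene, rose by 1.87 and 1.40. Gpnmb, counted lower in both, was well above background on 4 of 4 wild-type and 0 of 8 knockout arrays. It was tested through the wild-type group, where it was high. Of 8 neutrophil markers 4 and 2 were lower, among them Camp (-3.20 and -3.19). Ngp, counted lower in both, was well above background on 4 of 4 wild-type, 1 of 4 E2f1 knockout and 2 of 4 E2f2-labelled arrays. Of 8 endothelial markers 2 and 3 were lower, led by Lyve1 (-2.91 and -2.79). Tek, lower in E2f1 knockout livers, was well above background on 3 of 4 wild-type arrays and 2 of 4 in each knockout group. Ngp and Tek were likewise tested through the wild-type group. Of 8 stellate cell markers 2 were lower in each comparison, such as Col3a1 (-0.91 and -1.50). Cholangiocyte markers had 1 of 5 lower in each, Spp1, and dendritic cell markers 0 of 5 called in either. Of 9 T, NK and B cell markers 1 was higher in E2f1 knockout (Ms4a1) and 2 lower in E2f2-labelled livers (Cd8a and Cd3g). Ms4a1 was well above background on 2 of 4 wild-type, 4 of 4 E2f1 knockout and 3 of 4 E2f2-labelled arrays. Ms4a1 too entered the test through the knockout groups. Of 3 kidney markers Lrp2 was called higher in both. Its probe was well above background on 0 of 4 wild-type, 3 of 4 E2f1 knockout and 4 of 4 E2f2-labelled arrays, so it entered the test through the knockout groups. Since Kmo and Kynu are also expressed in macrophages, the macrophage values stand beside theirs, and their part was not tested.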

How the data were processed

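Livers were measured on 12 Agilent arrays with 1 colour. The submitters' processing notes name Agilent Feature Extraction 10.7.3.1 as the software. The scanner files deposited by the authors hold linear intensity values, from which background was subtracted per the file headers. The deposited series matrix holds log2 values with a median of 3.84 on every array, and its columns correlate with the log2 scanner values at 0.998 or above. How the matrix was made is not stated in the labels or headers, and it served as an alternative. Control spots and 2284 outlier spot values were left out. Signals were log2-transformed, the 75th percentile of each array was subtracted, and spots of a probe were averaged. A probe was tested where 3 or more of the 4 arrays in some group read it as well above background, and the brightest tested probe stood for a gene. The 12 arrays were fitted together without covariates in limma 3.58.1 (R 4.3.3, with version 1.17.8 of data.table), with 9 residual degrees of freedom and Benjamini-Hochberg adjustment, after a run on simulated data. Each group was 4 mice, and the number of arrays limits the precision. Probe positions are those of the files (mm9). Upstream sequences came from RefSeq (GRCm38.p6). Figures were drawn with matplotlib 3.10.9 in Python 3.11.15.

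The labels give the groups the same replicate numbers, each a slide. Same-slide arrays gave 12 pairs, and the deviations of a pair from its group means had r from 0.04 to 0.42, over 0.1 in 10 pairs. Not every pair passed 0.1, the level required to treat the numbers as pairs, and the unblocked design was kept as the main one. Values with the slide as a block are given for the enzymes whose call it changes. For the other pathway genes only a count with the block is given. The 9 enzymes and the lists (26 lists, 296 genes, 274 of them tested) were chosen with earlier results of these data known. All enzymes were named. From each list up to 4 genes with the smallest adjusted p in E2f1 knockout, then E2f2-labelled livers, were named, and called genes of the 2 pathway lists with Gstz1, Afmid, Acmsd, Qprt and Ido1. For 1 gene of these lists, which enters the counts, values are not reported here. Afp, Gpc3, Nr3c1, Alb, Apoa1, Eif2s3y, Xist, Tph1, Slc6a19, Mif, Maoa and Kyat3 were named after their values were seen. So were Bhlhe41, Npas2, Mki67, Prc1, Birc5, Ccnb1, Cdkn2a, Cdkn2b, Dpyd and Dpys. The same holds for Igfbp1, Sult1e1, Arntl and Bex1. Alternatives changed the background correction (normexp, offset 50), the scaling (quantile, median, or the values of the series matrix) or the filter (none, or detection on all 12 arrays), or used the mean of all probes, the replicate block, array weights, each array left out, and 1 alternative added later.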

Additional observations from a re-analysis of the deposited data

Results flagged for a closer look

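Over 46 genes (the 9 enzymes and 37 other pathway genes), 138 groups of 4 livers were examined for a liver far from the other 3, judged by its gap to the nearest divided by the range of the group (Dixon's 95% critical value). Chance flags about 1 group in 20, or 6.9 here, and 6 were found, none of them in the 9 enzymes. Acmsd in E2f1 knockout replicate 1 was -0.83, where the other 3 livers were 0.60 to 0.64 (0.974). Qdpr in E2f2-labelled replicate 3 was 6.16 against 5.61 to 5.63 (0.952). Mif in wild-type replicate 2 was 6.88 against 7.44 to 7.51 (0.892), and Maoa in wild-type replicate 3 was -1.99 against -3.04 to -2.91 (0.874). Nadsyn1 in E2f2-labelled replicate 3 was 3.45 against 3.21 to 3.25 (0.85), and Kyat3 in E2f1 knockout replicate 1 was 5.31 against 6.41 to 6.61 (0.843).

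The knockout groups differed on the dimmer Kmo probe, which was 0.85 ± 0.17 higher in E2f2-labelled than in E2f1 knockout livers (adjusted p = 0.0196), higher in 4 of 4 livers. E2f2 itself was 1.24 higher in E2f2-labelled than in E2f1 knockout livers (adjusted p = 0.00955).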

How the results depend on the processing

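Each result was recomputed under 21 alternatives and 1 more added after the data were seen, and no enzyme's difference from wild type changed sign. The dimmer Kmo probe by itself, at -0.04 in E2f1 knockout livers, was not 1 of these alternatives. In E2f1 knockout livers Hpd, Hgd, Tdo2, Ido2 and Kynu passed under all 22. The number of enzymes higher in E2f2-labelled livers, 8, was 5 with quantile normalization, median centring or series matrix values and 4 without a filter on dim probes. Under quantile normalization Hpd, Fah and Haao lost that call (adjusted p = 0.0571, 0.158 and 0.0838). The number ranged from 4 (without wild-type replicate 1 or 2, or E2f2-labelled replicate 2) to 9 when 1 array was left out. With the replicate block 9 passed, 8 passed in E2f1 knockout livers, and 20 of the other pathway genes were higher in E2f2-labelled livers against 12 (21 with array weights, 7 to 14 with 1 array left out). The other pathway gene lower in E2f2-labelled livers became 0 without the filter and 0 to 1 with 1 array left out. Genes called in E2f1 knockout livers numbered 4238, but 2797 without the filter and 2543 to 4900 with 1 array left out (2543 without wild-type replicate 2 and 2639 without E2f1 knockout replicate 3). In E2f2-labelled livers 4573 became 2933 with median centring, 2991 without the filter and 2763 to 5282 with 1 array left out (2763 without wild-type replicate 2 and 3044 without E2f2-labelled replicate 3). Between the knockout groups 337 became 215 with normexp, 205 with the filter on all 12 arrays and 520 with array weights. Without wild-type replicates 1 and 2 together the numbers were 1413 and 1544 genes, 5 and 0 enzymes, and 5 and 6 other pathway genes higher, with 0 and 0 lower, in fits with 2 wild-type arrays. Haao between the knockout groups, 0.12, reversed to -0.05 without E2f1 knockout replicate 2 and to -0.01 without E2f2-labelled replicate 4 (-0.05 to 0.26 in all). Quantile normalization moved the median of all genes from 0.129 to 0.034 and from 0.182 to 0.068. It moved the share higher among called genes from 64% to 50.4% and from 65.8% to 49.4%. The causes were not tested. Small differences in probes near background, such as Aadat in wild type, cannot be resolved.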
